A study of Cricetulus griseus with 6 samples.

Results

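The genes described here encode the proteins of the cytosolic ribosome. They were selected by symbol, as every *Rpl* or *Rps* gene with a plain number, an optional letter or a paralog suffix, together with *Rplp0*, *Rplp1*, *Rplp2* and *Rpsa*, and without the *Rps6k* kinases. A mean of at least 0.1 FPKM over the 6 libraries was also required. FPKM are fragments mapped to a gene, divided by exon length and by a measure of library size. The rule gave 78 rows with 76 symbols, of 27873 rows in the files and 14361 that reached the same level. Of 79 rows with a matching symbol, only *Rpl3l*, a paralog of *Rpl3*, was left out, since it was above 0 in 2 libraries and its mean FPKM was 0.0436. *Rpl4* and *Rps19* each stand on 2 rows. The rows divide into 47 of the large subunit and 31 of the small subunit. By a list of 77 standard ribosomal protein symbols, 71 were present, and *Rpl17*, *Rpl36*, *Rpl36a*, *Rpl41*, *Rps6* and *Rps29* were not analysed here. The other 5 symbols are the paralogs *Rpl7l1*, *Rpl22l1*, *Rpl26l1*, *Rpl36al* and *Rps27l*.

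The cells were CHO-T cells, a Chinese hamster ovary line that stably carries mouse T-cadherin (*Cdh13*) cDNA. The cDNA was delivered by a retrovirus, is driven by a retroviral element and was kept by puromycin selection. All 6 libraries come from these transgenic cells, and 3 were transfected with negative control siRNA and 3 with *Xbp1* siRNA. *Xbp1* encodes a transcription factor of the unfolded protein response and is the mRNA spliced by the endoplasmic reticulum stress sensor IRE1α. The medium was renewed a day after seeding and RNA was taken a day later. Nothing states that the line is 1 clone. The study's methods speak in general of independent biological experiments, but neither they nor the labels say so of these 3 libraries per group, so the p-values measure the spread between these libraries, which may be technical. In bulk RNA, fewer cells that express a gene and less of its RNA per cell cannot be told apart.

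A ribosome has a small subunit, which holds the mRNA and decodes it, and a large subunit, which joins the amino acids. Each protein is present once per ribosome, apart from the stalk of the large subunit, in which the product of *Rplp0* anchors paired copies of the products of *Rplp1* and *Rplp2*. Ribosomal protein mRNAs are among the most abundant of a dividing cell and are regulated together through a terminal oligopyrimidine (TOP) motif at their 5′ end. Many of these genes have processed pseudogenes, copies made from mRNA that closely resemble the parent.

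The *Xbp1* siRNA lowered its target in all 3 libraries. *Xbp1* read 26.0, 26.2 and 28.4 FPKM in the control libraries and 2.18, 2.11 and 1.39 FPKM after *Xbp1* siRNA (log2 fold change -3.78, SE 0.16, adjusted p = 5.61e-06 by limma). Summed FPKM ran from 646651 to 666267 in the control libraries and from 593487 to 600986 in the *Xbp1* siRNA libraries, so the groups differ in this total. FPKM give no read totals, but the size of 1 read in low genes put the depths of the other 5 libraries at 94.0% to 116% of control replicate 1. Of the mesenchymal genes, *Vim* fell from 377 to 304 FPKM (adjusted p = 0.000738) and *Lgals1* from 603 to 334 FPKM (adjusted p = 5.65e-05), *Fn1* rose from 13.1 to 23.3 FPKM (adjusted p = 2.15e-05) and *Col1a1* was listed at 0. Of the markers of ovary, the labelled tissue, the granulosa cell receptor *Fshr* and the egg coat gene *Zp3* were listed at 0. *Amh* and *Inha* were at 2.63 to 3.52 FPKM, and of the other oocyte genes *Ddx4* was at 1.63 and 1.32 FPKM and *Gdf9* at 0.509 and 0.467 FPKM in the control and *Xbp1* siRNA groups. The leukocyte genes *Ptprc* and *Cd3e* and the epithelial *Krt18* were also listed at 0. The epithelial genes *Epcam* and *Cdh1* were higher after *Xbp1* siRNA (1.82 to 4.72 and 0.131 to 0.434 FPKM). The part of these mesenchymal and epithelial genes' changes in the results below was not tested.

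Ribosomal protein genes were among the most abundant in these cells. They made up 16 of the 20 genes with the highest mean FPKM, 41 of the first 50 and 64 of the first 100. The median member had a mean of 1424 FPKM, against 10.9 FPKM for all genes tested. A mean of at least 1000 FPKM was reached by 53 rows, while 10 lay under 500 FPKM and *Rpl26l1* alone lay under 100 FPKM. Libraries of a group were close to each other, with a median coefficient of variation of 3.11% in the control group and 2.84% after *Xbp1* siRNA.

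The 5 rows with the highest means were *Rpl23a*, *Rps18*, *Rpl31*, *Rplp1* and *Rpl13a*. *Rpl23a*, a protein at the exit of the nascent chain tunnel, read 6394, 6178 and 6226 FPKM in control libraries and 5427, 5144 and 5334 FPKM after *Xbp1* siRNA (log2 fold change -0.24, adjusted p = 0.00100). *Rpl13a* read 5241, 4992 and 5008 FPKM and then 4438, 4383 and 4627 FPKM (-0.18, adjusted p = 0.00559). In both genes every *Xbp1* siRNA library lay below every control library, but *Rpl23a* missed the threshold after quantile normalization (-0.03, adjusted p = 0.444) and *Rpl13a* after TPM rescaling (-0.05, adjusted p = 0.199). *Rps18*, a protein of the head of the small subunit, read 5960, 5501 and 5617 FPKM and then 5446, 4951 and 5319 FPKM (-0.12, adjusted p = 0.0829). *Rpl31* read 5222, 5306 and 5200 FPKM and then 5039, 4972 and 5143 FPKM (-0.05, adjusted p = 0.186). These last changes were small and missed the threshold, although in neither gene did the groups overlap, and both estimates turn positive under 2 of the scalings described further on.

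The comparison of the groups asks how each mRNA differs between *Xbp1* siRNA and control siRNA. The study's methods list a single *Xbp1* siRNA sequence. Effects of that sequence on other mRNAs therefore cannot be told apart from loss of *Xbp1*. On the FPKM as deposited, most ribosomal protein genes were slightly lower after *Xbp1* siRNA, a few small and large subunit genes were much lower, and *Rplp0* was higher. The median log2 fold change (*Xbp1* siRNA minus control, on log2(FPKM + 0.1)) was -0.15 over the 78 rows, with quartiles of -0.24 and -0.07, against 0.01 over all genes tested. Below 0 lay 69 rows and above 0 lay 9. At an adjusted p under 0.05 (limma, Benjamini-Hochberg over all genes), 49 rows or 62.8% were lower, beside 20.2% of all genes, and 2 rows or 2.56% were higher, beside 20.2% of all genes. These counts and the sign of the median depend on the scaling of the libraries, as given further on. With an added limit of 2-fold, only *Rps2* was lower (2.5% of all genes) and no row was higher (2.69% of all genes). In 57 rows or 73.1% every *Xbp1* siRNA library was below every control library (25.8% of all genes), in 2 rows every one was above (26.1% of all genes), and in 19 rows the groups overlapped.

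Both subunits had the same centre. The 47 large subunit rows had a median log2 fold change of -0.15, with 29 lower, 2 higher and 16 that did not pass. The 31 small subunit rows also had a median of -0.15, with 20 lower, none higher and 11 that did not pass. The small subunit reached further down, to -1.52, while the large subunit ran from -0.73 to 0.57.

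**Figure D1:**
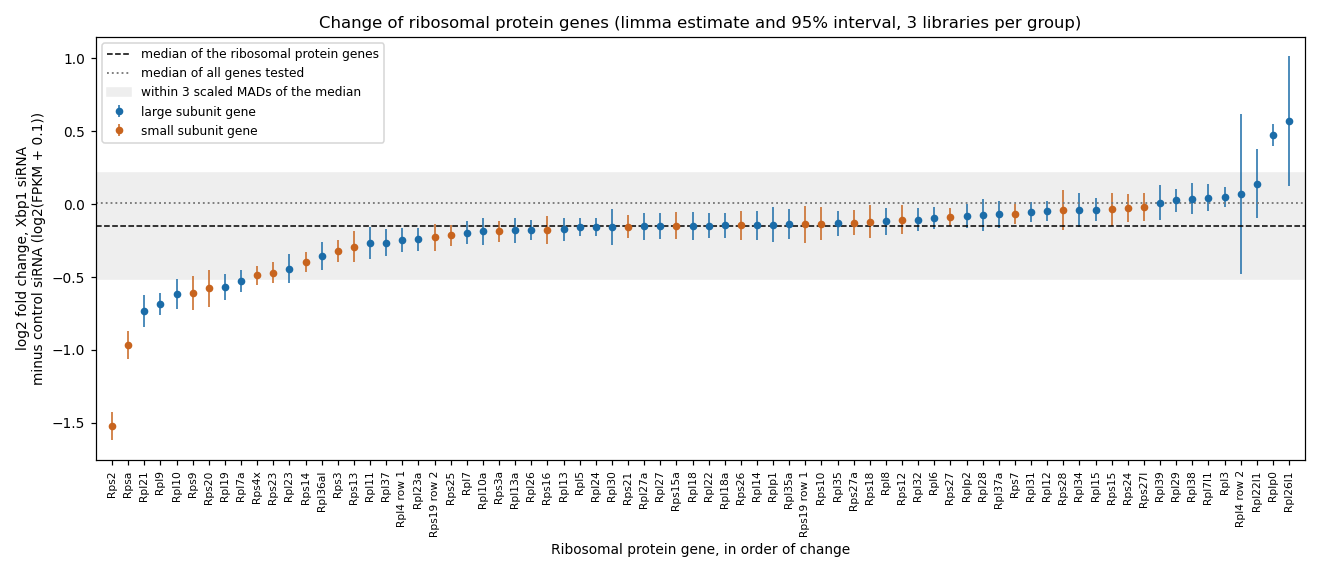
Each point is the log2 fold change (*Xbp1* siRNA minus control siRNA, y axis) of 1 ribosomal protein row with its 95% interval from limma, a few rows not reported here being left out, ordered along the x axis and coloured by subunit. The dashed line is the median of the 78 rows, the dotted line that of all genes tested and the band spans 3 scaled median absolute deviations; *Rps2* and *Rpsa* lie far below the band and *Rplp0* and *Rpl26l1* above it.

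The rows kept close together, so those that did not stand out. The scaled median absolute deviation of the 78 changes was 0.12, and 11 rows lay more than 3 such deviations from the median, below -0.51 or above 0.21. Of these, 9 were low (*Rps2*, *Rpsa*, *Rpl21*, *Rpl9*, *Rpl10*, *Rps9*, *Rps20*, *Rpl19* and *Rpl7a*) and 2 were high (*Rplp0* and *Rpl26l1*). The nearest rows inside the limits were *Rps4x* at -0.49 and *Rpl22l1* at 0.14. The other 67 rows ran from -0.49 to 0.14 with 40 lower, 27 that did not pass and 60 below 0.

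Among small subunit genes, *Rps2* moved most. *Rps2* encodes uS5, a protein at the mRNA entry channel that is methylated on arginines by PRMT3. It read 5051, 4714 and 4701 FPKM in control libraries and 1726, 1611 and 1696 FPKM after *Xbp1* siRNA. The control libraries were thus all well above the others, and the mean fell from 4822 ± 198 to 1678 ± 59.7 FPKM (SD, n = 3 each), or 34.8% of control (log2 fold change -1.52, SE 0.04, limma adjusted p = 1.53e-06). *Rpsa*, the laminin receptor protein uS2, which lies on the back of the small subunit beside *Rps21*, read 4367, 4143 and 4017 FPKM and then 2174, 2059 and 2184 FPKM. Its groups did not come near each other, and the mean went to 51.2% of control (log2 fold change -0.96, SE 0.04, adjusted p = 5.35e-06).

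*Rps9* and *Rps20* were the other small subunit genes beyond the limits. *Rps9*, an early assembly protein, read 826, 742 and 743 FPKM and then 514, 485 and 514 FPKM, or 65.5% of control (-0.61, SE 0.05, adjusted p = 7.97e-05). *Rps20*, a protein of the head, read 535, 481 and 473 FPKM and then 332, 345 and 319 FPKM, or 66.9% of control (-0.58, SE 0.05, adjusted p = 0.000155). In each, control replicate 1 was the highest library, and the groups were still apart without it.

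In the large subunit the lower genes were *Rpl21*, *Rpl9*, *Rpl10*, *Rpl19* and *Rpl7a*. *Rpl21* read 1832, 1755 and 1719 FPKM in control libraries and 1030, 1033 and 1135 FPKM after *Xbp1* siRNA, or 60.3% of control (-0.73, SE 0.05, limma adjusted p = 2.62e-05). *Rpl9*, a protein at the base of the stalk, read 1584, 1602 and 1627 FPKM and then 966, 1009 and 1020 FPKM, or 62.2% of control (-0.68, SE 0.03, adjusted p = 6.36e-06). In neither gene did an *Xbp1* siRNA value come near a control value. *Rpl10*, among the last proteins to join the large subunit in the cytoplasm, read 1043, 1024 and 991 FPKM and then 637, 656 and 705 FPKM, or 65.3% of control (-0.62, adjusted p = 4.00e-05). *Rpl19*, which bridges the subunits, read 934, 965 and 907 FPKM and then 657, 621 and 613 FPKM, or 67.4% of control (-0.57, adjusted p = 3.38e-05). *Rpl7a* read 1156, 1115 and 1133 FPKM and then 805, 762 and 794 FPKM, or 69.4% of control (-0.53, adjusted p = 2.15e-05).

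Higher after *Xbp1* siRNA stood *Rplp0*, the stalk protein uL10, also known as 36B4. It read 3184, 3105 and 3014 FPKM in control libraries and 4359, 4257 and 4322 FPKM after *Xbp1* siRNA. Every *Xbp1* siRNA library was well above every control library, and the mean rose from 3101 ± 85.1 to 4313 ± 51.4 FPKM (SD, n = 3 each), or 139% of control (log2 fold change 0.48, SE 0.03, limma adjusted p = 3.22e-05). Its stalk partners did not pass the test as deposited. *Rplp1* read 5550, 5301 and 5065 FPKM and then 4764, 4584 and 5104 FPKM, with overlapping groups (-0.14, adjusted p = 0.0639), and *Rplp2* read 2549, 2487 and 2390 FPKM and then 2295, 2312 and 2399 FPKM, also with overlap (-0.08, adjusted p = 0.0997). *Rplp1* passed as lower without control replicate 3 or without *Xbp1* siRNA replicate 3 (lowest adjusted p = 0.0312), and *Rplp2* turned positive after TPM rescaling (0.05) and passed as higher after quantile normalization (0.19, adjusted p = 0.000142).

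*Rplp0* was the gene against which the study normalized its quantitative PCR of *Cdh13* in these cells. The primers listed for it, which were not matched to a transcript sequence here, follow (20 bases each, 5′ to 3′).
forward: gttacccgactgttgcctca
reverse: tccacagacaaagccaggac
The choice of reference bears on a ratio. *Cdh13* fell to 38.6% of control in FPKM (85.2 ± 0.478 to 32.9 ± 0.476, SD, n = 3 each). Divided by *Rplp0* in the same library it fell to 27.8% of control, and divided by *Rpl12*, taken as a ribosomal protein gene near no change (log2 fold change -0.04 as deposited, and up to 0.23 over the scalings) after its values were seen, to 39.9% of control. In both ratios the groups were apart (exact two-sided permutation p = 0.10, the smallest that 3 against 3 can give). The study's own PCR of *Cdh13* over *Rplp0* in *Xbp1*-silenced CHO-T cells reported a milder fall than any of these values. The reason for that difference was not tested.

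**Figure D2:**
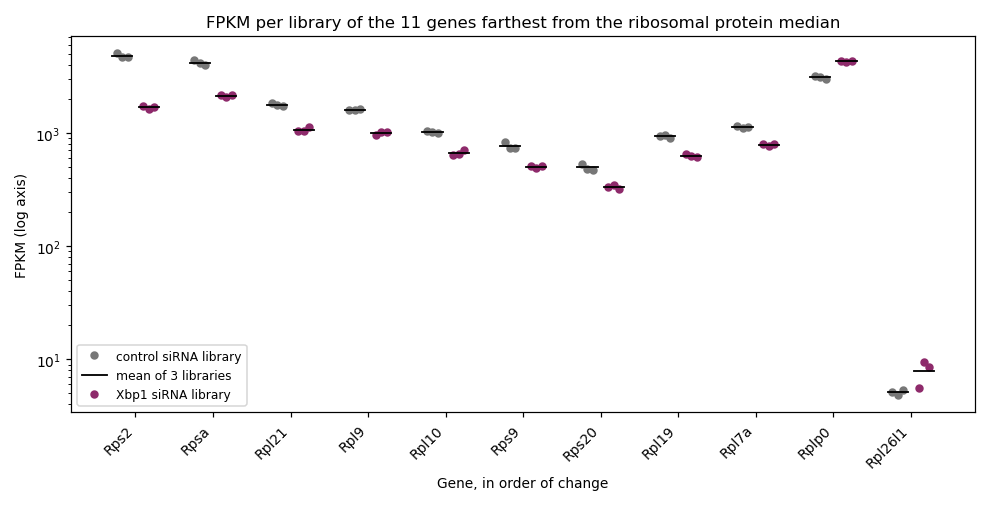
FPKM (y axis, log scale) in each of the 3 control siRNA and 3 *Xbp1* siRNA libraries for the 11 ribosomal protein genes farthest from the median change, with a bar at each group's mean. In 9 genes all *Xbp1* siRNA points lie below the control points, in *Rplp0* they lie above, and in *Rpl26l1* they spread from 5.53 to 9.49.

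Ratios between ribosomal protein genes do not depend on a scaling factor shared by a library. *Rplp0* over *Rplp1* was 0.574, 0.586 and 0.595 in control libraries and 0.915, 0.929 and 0.847 after *Xbp1* siRNA, a 1.53-fold rise. *Rplp0* over *Rplp2* went from 1.25 ± 0.00716 to 1.85 ± 0.0494 (SD, n = 3 each), while *Rplp2* over *Rplp1* was 0.467 ± 0.00662 and 0.485 ± 0.0175, with overlapping groups. Of the stalk ratios, both that include *Rplp0* moved apart and the third did not. *Rps2* over *Rps18* went from 0.847 to 0.320 (37.8% of control), and *Rpsa* over *Rps21*, which lie side by side on the ribosome, from 1.66 ± 0.0167 to 0.948 ± 0.0385. Against *Rps3*, another protein of the entry channel, *Rps2* went to 43.5% of control and *Rpsa* to 64.0%. The groups of the 6 ratios other than *Rplp2* over *Rplp1* were apart, with exact permutation p = 0.10 for each.

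Relative to the median ribosomal protein gene of its library, *Rps2* stood at 40.3% of its control ratio, *Rpsa* at 59.3% and *Rplp0* at 161%. The remaining low genes, *Rpl21*, *Rpl9*, *Rpl10*, *Rps9*, *Rps20*, *Rpl19* and *Rpl7a*, stood between 69.8% and 80.2%.

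**Figure D3:**
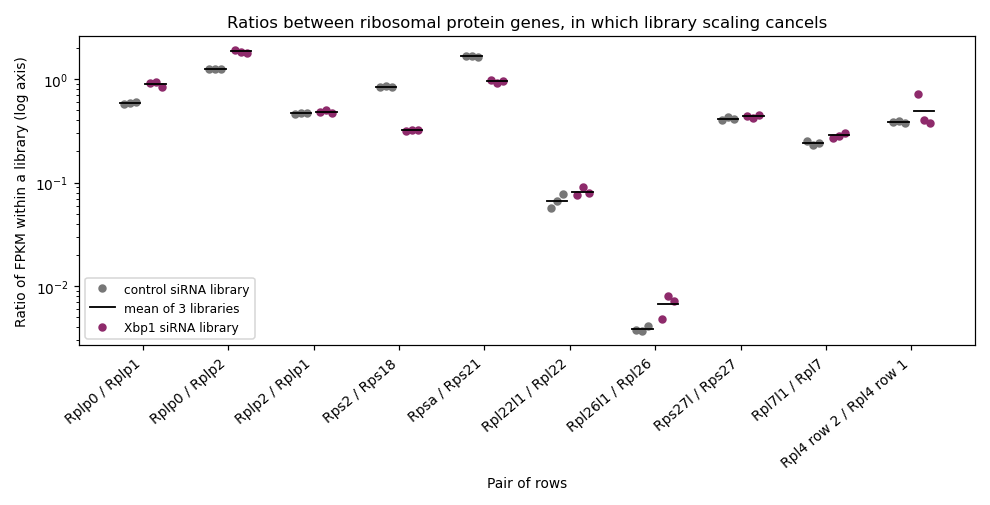
Ratio of FPKM of paired rows within each library (y axis, log scale), with control siRNA and *Xbp1* siRNA libraries as points and group means as bars. *Rplp0* rises against both stalk partners, *Rps2* and *Rpsa* fall against *Rps18* and *Rps21*, and *Xbp1* siRNA replicate 1 alone is high for the second *Rpl4* row.

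Below the limits for standing out came *Rps4x*, *Rps23*, *Rpl23* and *Rps14*, named after their values were seen because they stayed lower under every scaling. *Rps4x*, the X-linked copy of eS4, read 1841, 1909 and 1860 FPKM in control libraries and 1319, 1341 and 1342 FPKM after *Xbp1* siRNA (-0.49, limma adjusted p = 1.82e-05). *Rps23*, a protein of the decoding centre, read 3085, 3021 and 2953 FPKM and then 2213, 2138 and 2191 FPKM (-0.47, adjusted p = 2.95e-05). In each, the control libraries were all higher. *Rpl23* read 704, 677 and 693 FPKM and then 479, 519 and 528 FPKM (-0.44, adjusted p = 0.000173), and *Rps14* read 1407, 1385 and 1364 FPKM and then 1052, 1035 and 1074 FPKM (-0.39, adjusted p = 4.90e-05).

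The rows within the limits include *Rps4x*, *Rps23*, *Rpl23* and *Rps14*, which lay farther from the common shift than most. In the small subunit 16 rows within the limits were lower at an adjusted p under 0.05, among them *Rps3*, *Rps4x*, *Rps13*, *Rps14*, the second *Rps19* row, *Rps21*, *Rps23*, *Rps25* and *Rps27*. Among the 11 that did not pass were *Rps10*, *Rps12*, *Rps18*, the first *Rps19* row, *Rps27l* and *Rps28*. After quantile normalization *Rps21*, *Rps25*, *Rps27* and the second *Rps19* row turned positive, at 0.099, 0.080, 0.20 and 0.088. *Rps3* and *Rps13* missed the threshold in at least 1 scaling (largest limma adjusted p = 0.683 and 0.528). In the large subunit 24 rows within the limits were lower, among them *Rpl5* and *Rpl11*, which carry the 5S rRNA and can bind MDM2 (-0.16 and -0.27), *Rpl36al*, *Rpl37* (-0.27) and *Rpl23a*. After quantile normalization *Rpl5*, *Rpl11* and *Rpl37* turned positive, at 0.12, 0.02 and 0.02. The 16 that did not pass were *Rpl3*, the second *Rpl4* row, *Rpl7l1*, *Rpl12*, *Rpl15*, *Rpl22l1*, *Rpl28*, *Rpl29*, *Rpl30*, *Rpl31*, *Rpl34*, *Rpl37a*, *Rpl38*, *Rpl39*, *Rplp1* and *Rplp2*. The changes of the 27 rows that did not pass lay between -0.15 and 0.14.

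Library scaling decided how many of the small changes had a direction. With each library scaled by the median of its gene ratios, the members' median stayed at -0.15, with 50 rows lower (64.1%, beside 20.4% of all genes) and 2 higher (2.56%, beside 20.01%). With upper-quartile scaling it was -0.10, with 34 lower (43.6%, beside 17.3% of all genes) and 3 higher (3.85%, beside 23.6%). When each library was rescaled to the same total of 1000000 (TPM), the median was -0.01, with 21 lower (26.9%, beside 13.0% of all genes) and 12 higher (15.4%, beside 31.7% of all genes), and the median of all genes shifted by 0.13, to 0.14. With quantile normalization the median was 0.11, with 16 lower (20.5%, beside 18.5% of all genes) and 43 higher (55.1%, beside 21.7%). The share of lower among the significant rows thus went from 96.1% as deposited to 91.9%, 63.6% and 27.1% under upper-quartile, TPM and quantile scaling. Over all genes tested the same share was 50.1% as deposited and then 42.3%, 29.1% and 46.0%. The members' median minus that of all genes was -0.15 as deposited and after each scaling by a single factor, and 0.09 after quantile normalization. With a single factor per library this difference is fixed in advance, apart from the 0.1 added before taking logs.

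The sign of 47 rows depended on the scaling and that of 31 did not. The 5 scalings are not independent checks, since median-ratio scaling nearly repeats the deposited values (9 rows above 0 in both). Quantile normalization gives all libraries the same set of values. Members held 64 of the 100 highest places, so it can take up a shift common to them. An adjusted p under 0.05 under all 5 scalings was kept by 15 rows in the lower direction. They were the 9 low genes outside the limits (*Rps2*, *Rpsa*, *Rpl21*, *Rpl9*, *Rpl10*, *Rps9*, *Rps20*, *Rpl19* and *Rpl7a*) with *Rps4x*, *Rps23*, *Rpl23*, *Rps14*, *Rpl36al* and the first *Rpl4* row. *Rplp0* was the only row that was higher under all 5, and no other row passed in 1 direction under all of them. Over the scalings the log2 fold change ran from -1.53 to -1.37 for *Rps2*, from -0.97 to -0.69 for *Rpsa*, from -0.73 to -0.45 for *Rpl21*, from -0.69 to -0.41 for *Rpl9* and from 0.47 to 0.69 for *Rplp0*.

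**Figure D4:**
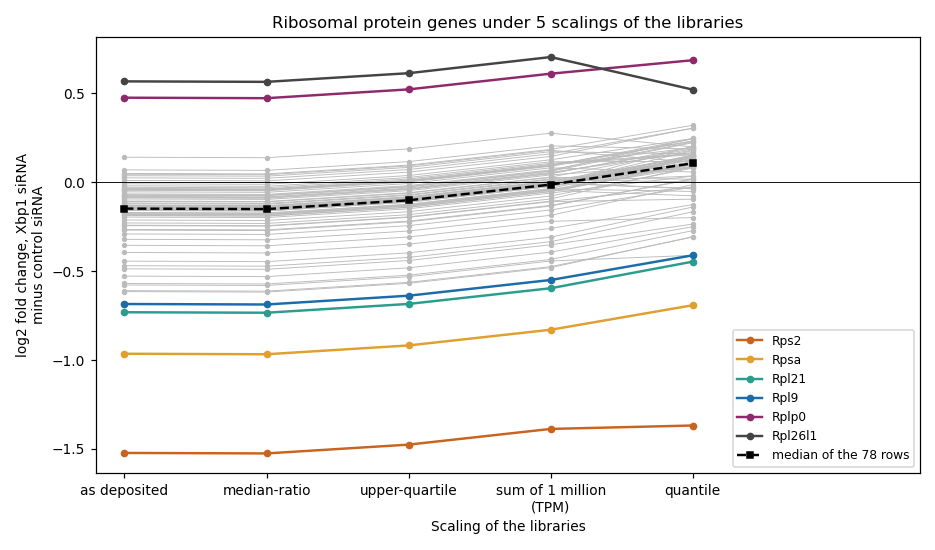
Log2 fold change (*Xbp1* siRNA minus control siRNA, y axis) of each of the 78 rows under 5 scalings of the libraries (x axis), with 6 rows in colour and the median dashed. The median moves from -0.15 as deposited to 0.11 after quantile normalization, while *Rps2*, *Rpsa*, *Rpl21* and *Rpl9* stay below 0 and *Rplp0* above it.

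The summed share of the ribosomal protein genes does not depend on a scaling factor either. It was 24.1%, 23.8% and 23.5% of all FPKM in the control libraries and 22.8%, 22.6% and 23.2% after *Xbp1* siRNA. The mean went from 23.8 ± 0.299% to 22.9 ± 0.273% (SD, n = 3 each), with no overlap (exact permutation p = 0.10). Without *Rps2*, *Rpsa* and *Rplp0* the share was 22.2%, 22.0% and 21.7% and then 21.4%, 21.3% and 21.8%, and the groups overlapped, so the difference went from -0.92 to -0.43 percentage points.

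On the FPKM as deposited, other abundant genes also had medians below 0. The 53 members with a mean of at least 1000 FPKM had a median log2 fold change of -0.15. The 21 other genes at that level had a median of -0.26, with 15 lower (71.4%, beside 20.2% of all genes) and none higher at an adjusted p under 0.05. At 100 FPKM or more, 986 other genes had a median of -0.09, with 420 (42.6%) lower and 201 (20.4%) higher. After TPM rescaling these medians were -0.01 for the 53 members, -0.12 for the 21 genes and 0.05 for the 986 genes, the last with 257 (26.1%) lower and 386 (39.1%) higher. Among the 78 rows themselves the level and the change were not ordered together (Spearman's rho 0.04 across genes, which share the libraries).

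**Figure D5:**
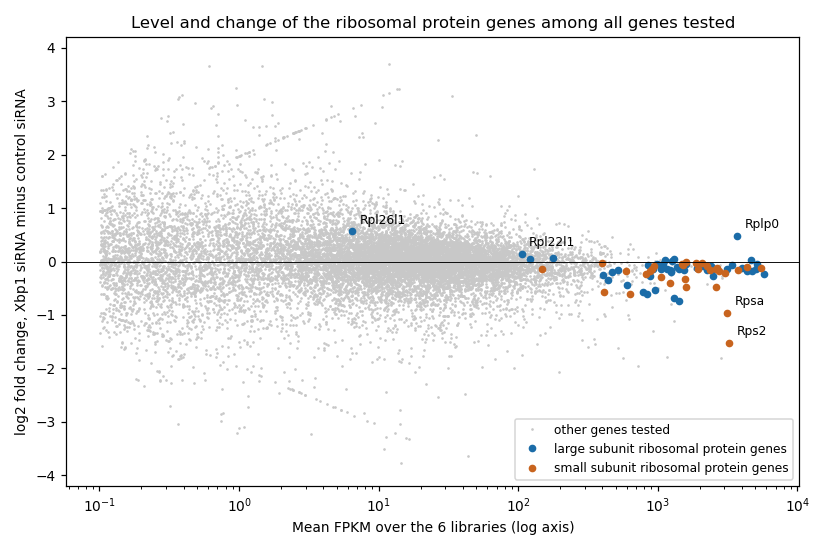
Log2 fold change (*Xbp1* siRNA minus control siRNA, y axis) against mean FPKM over the 6 libraries (x axis, log scale), with each tested gene in grey and ribosomal protein rows coloured by subunit. Most members lie at 1000 FPKM or more just below 0, with *Rps2* and *Rpsa* below them and *Rplp0* above.

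Paralogs whose parent gene was analysed here were at a fraction of that parent. *Rpl26l1*, a close relative of *Rpl26*, read 5.12, 4.86 and 5.41 FPKM in control libraries and 5.53, 9.49 and 8.49 FPKM after *Xbp1* siRNA. Replicate 1 of the *Xbp1* siRNA group lay next to the controls, and the other libraries of that group were higher (153% of control, log2 fold change 0.57, SE 0.19, limma adjusted p = 0.0480). It missed the threshold when either of the higher libraries was left out, as when any control library was, with adjusted p from 0.0832 to 0.139, and without *Xbp1* siRNA replicate 1 it was 0.00199. *Rpl26* read 1355, 1310 and 1304 FPKM and then 1155, 1171 and 1182 FPKM (-0.18, adjusted p = 0.00214, and 0.09 after quantile normalization). *Rpl26l1* was therefore 0.388% of *Rpl26* in control libraries and 0.669% after *Xbp1* siRNA, with no overlap (exact permutation p = 0.10).

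*Rpl7l1*, which acts in assembly of the large subunit, read 122, 120 and 119 FPKM and then 120, 124 and 130 FPKM (0.05, interval -0.04 to 0.14, adjusted p = 0.392). Its parent *Rpl7* read 487, 517 and 492 FPKM and then 444, 435 and 427 FPKM (-0.20, adjusted p = 0.00288, and 0.04 after quantile normalization). The paralog thus went from 24.2% of its parent to 28.6%, and the groups were apart. As deposited the parent passed the test and the paralog did not, while after TPM rescaling the paralog passed (0.18, adjusted p = 0.00546) and the parent did not (-0.06, adjusted p = 0.209). *Rpl22l1* read 87.8, 101 and 113 FPKM and then 100, 121 and 111 FPKM (0.14, interval -0.09 to 0.38, adjusted p = 0.308), and *Rpl22* read 1540, 1515 and 1457 FPKM and then 1325, 1339 and 1408 FPKM (-0.15, adjusted p = 0.0144, and 0.14 after quantile normalization). Their ratio overlapped between the groups, at 6.72 ± 1.03% and 8.17 ± 0.767% (exact permutation p = 0.20).

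*Rps27l*, a target of p53, read 391, 414 and 399 FPKM and then 393, 379 and 415 FPKM (-0.02, interval -0.12 to 0.08, adjusted p = 0.742, and above 0 under 3 scalings). *Rps27* read 967, 964 and 962 FPKM and then 896, 900 and 927 FPKM (-0.09, adjusted p = 0.0363, and above 0 after TPM and quantile scaling). The paralog was 41.6% and 43.6% of its parent, with overlap (exact permutation p = 0.20). *Rpl36al* read 497, 503 and 472 FPKM and then 380, 370 and 402 FPKM, with the groups apart (-0.35, limma adjusted p = 0.000454). Its parent *Rpl36a* was not analysed here. *Rpl3*, whose product lies near the peptidyl transferase centre, read 1309, 1259 and 1273 FPKM and then 1320, 1309 and 1347 FPKM (0.05, adjusted p = 0.215), and it passed after upper-quartile (0.10), TPM (0.19) and quantile scaling (0.32, adjusted p = 8.56e-05). *Rpl39*, which lines the exit tunnel, read 1258, 1289 and 1217 FPKM and then 1172, 1318 and 1307 FPKM, with overlap (0.01, adjusted p = 0.889), and it passed after TPM (0.15) and quantile scaling (0.30, adjusted p = 0.000571).

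The symbols with paired rows showed how a row can depart from its gene. The first *Rpl4* row read 450, 429 and 447 FPKM and then 386, 364 and 370 FPKM (-0.24, adjusted p = 0.00118). The second read 172, 168 and 167 FPKM and then 275, 145 and 140 FPKM (0.07, SE 0.23, adjusted p = 0.843). *Xbp1* siRNA replicate 1 alone was high on that row, with 0.712 of the first row against 0.373 to 0.400 in the other 5 libraries, and without it the second row stood at -0.24 (adjusted p = 0.00345). The first *Rps19* row read 165, 155 and 149 FPKM and then 149, 142 and 134 FPKM (-0.14, adjusted p = 0.0741), and the second, with more of the signal, read 919, 849 and 882 FPKM and then 761, 730 and 770 FPKM (-0.23, adjusted p = 0.00263, and 0.09 after quantile normalization). Their ratio overlapped between the groups, at 0.177 and 0.188.

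Values of ribosomal protein genes are uncertain where reads match near-identical copies. Rows with a locus number instead of a name made up 3768 or 26.2% of the rows tested, 140 of them at 100 FPKM or more, and 7 of the 21 other genes at 1000 FPKM or more were of this kind. Over the 3768, 504 (13.4%) were lower and 363 (9.63%) higher at an adjusted p under 0.05 as deposited, both under the 20.2% of all genes, with a median of -0.05. After TPM rescaling 365 were lower and 555 higher, with a median of 0.07. Which of them are copies of ribosomal protein genes, and how reads that match several loci were divided, were not given in the sources used here, so their part in the values of *Rps2*, *Rpsa* or any other member was not tested.

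Beyond the name rule, *Fau*, whose product carries the small subunit protein eS30 fused to a ubiquitin-like domain, went from 1902 ± 52.7 to 1720 ± 55.5 FPKM (SD, n = 3 each, -0.15, limma adjusted p = 0.0150). *Rack1*, a scaffold on the head of the small subunit, went from 873 ± 16.1 to 735 ± 11.1 FPKM (-0.25, adjusted p = 0.000428). *Fau* lay near the members' median and *Rack1* just below their lower quartile. Both turned positive after quantile normalization, to 0.07 and 0.06, and *Fau* missed the threshold with upper-quartile scaling (adjusted p = 0.0561) and TPM rescaling.

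Genes of other steps of ribosome production were read against all genes tested, of which 20.2% were higher and 20.2% lower at an adjusted p under 0.05 as deposited, 31.7% and 13.0% after TPM rescaling, and 21.7% and 18.5% after quantile normalization. Of 81 ribosome biogenesis genes tested, 12 (14.8%) were higher, 28 (34.6%) lower and 41 did not pass, with a median of -0.04. After TPM rescaling 27 (33.3%) were higher and 13 (16.0%) lower, near the shares of all genes, with a median of 0.09. *Mdn1*, an AAA ATPase that remodels large subunit precursors, went from 7.76 ± 0.301 to 14.7 ± 0.156 FPKM (SD, n = 3 each, log2 fold change 0.91, adjusted p = 3.48e-05). *Bms1*, a GTPase of the small subunit processome, went from 75.5 ± 2.45 to 52.5 ± 2.96 FPKM (-0.52, adjusted p = 0.000191). *Sbds*, which helps release eIF6 from the large subunit, went from 49.5 ± 4.24 to 34.1 ± 2.71 FPKM (-0.54, adjusted p = 0.00150). Of 14 RNA polymerase I genes, 3 (21.4%) were higher, 3 lower and 8 did not pass (median -0.05, and 0.08 after TPM rescaling).

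Among 18 chaperones, importers and partners of ribosomal proteins, 6 (33.3%) were higher, 5 (27.8%) lower and 7 did not pass (median -0.08). After TPM rescaling 7 (38.9%) were higher and 1 (5.56%) lower, with a median of 0.06. *Ipo7*, an importin for ribosomal proteins, went from 70.5 ± 2.79 to 46.8 ± 1.39 FPKM (-0.59, adjusted p = 5.45e-05). The partners of the *Rps2* product are given because *Rps2* moved most, and were picked after their values were seen. *Pdcd2*, its dedicated chaperone, went from 21.8 ± 2.5 to 21.4 ± 1.61 FPKM (-0.02, adjusted p = 0.883, with either sign over the scalings), and *Pdcd2l* from 35.3 ± 2.2 to 28.6 ± 1.47 FPKM (-0.30, adjusted p = 0.00656). *Znf277*, a zinc finger protein that binds the *Rps2* product, went from 20.9 ± 0.873 to 27.1 ± 0.442 FPKM (0.37, adjusted p = 0.000856) and *Prmt3* from 42.9 ± 2.84 to 48.2 ± 1.78 FPKM (0.17, adjusted p = 0.0492). *Prmt3* missed the threshold with median-ratio scaling (adjusted p = 0.0525) and when any 1 library other than control replicate 2 was left out, and *Pdcd2l* missed it after TPM rescaling (adjusted p = 0.0594). The partners had no common direction.

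A list of 25 mRNAs with a TOP motif held translation factors and other genes. On it 2 were higher (8%), 11 lower (44%) and 12 did not pass, with a median of -0.06. *Fau*, *Rack1* and *Vim*, given above, are counted among the 11. After TPM rescaling 11 (44%) were higher and 7 (28%) lower, with a median of 0.07, beside 31.7% and 13.0% of all genes. After quantile normalization 14 (56%) were higher and 4 (16%) lower, with a median of 0.11, beside 21.7% and 18.5% of all genes. *Nap1l1*, a histone chaperone, moved most, from 320 ± 14.8 to 189 ± 1.91 FPKM (-0.76, adjusted p = 9.75e-06). Of 28 regulators of TOP mRNAs and of ribosomal protein gene transcription, 6 (21.4%) were higher, 11 (39.3%) lower and 11 did not pass (median -0.06). After TPM rescaling 12 (42.9%) were higher and 11 (39.3%) lower, with a median of 0.07. The mTORC1 activator *Rheb* went from 145 ± 3.51 to 101 ± 3.67 FPKM (-0.52, adjusted p = 5.24e-05). The mTORC1 inhibitors differed in direction. *Ddit4* went from 11.5 ± 1.46 to 6.19 ± 0.738 FPKM (-0.89, adjusted p = 0.000979) and *Sesn1* from 5.59 ± 0.479 to 10.2 ± 0.165 FPKM (0.86, adjusted p = 0.000206). *Larp4*, a poly(A)-binding La-related protein, went from 60.9 ± 5.86 to 41.7 ± 1.98 FPKM (-0.54, adjusted p = 0.000995), and *Mxd4*, a partner of MAX, from 5.75 ± 0.637 to 3.46 ± 0.137 FPKM (-0.71, adjusted p = 0.00186). As deposited none of the genes of these lists passed the 2-fold limit, and after TPM rescaling *Mdn1* did (1.05).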

How the data were processed

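Messenger RNA from 6 CHO-T samples (3 negative control siRNA, 3 *Xbp1* siRNA) was sequenced by the authors after a stranded mRNA library preparation. The authors deposited FPKM per gene and library, and the submitters' processing notes name HISAT2 2.1.0 and Cuffdiff 2.2.1. The genome build, the annotation and the handling of multiply mapped reads are not given in the sources used here. FPKM depend on the measure of library size, which is not stated here. Scaling by the median of gene ratios moved the median of all genes by -0.0027, against 0.13 with TPM rescaling. The published test (DESeq2, by the authors) needs counts, which were not used here. Instead, limma 3.58.1 in R 4.3.3 (lmFit, eBayes with trend) was fitted to log2(FPKM + 0.1) over the 14361 rows with a mean FPKM of at least 0.1, with Benjamini-Hochberg adjustment. Fold changes on this scale understate changes of low genes. The authors' limits (adjusted p under 0.05, log2 fold change of at least 1) defined a call, and counts at the adjusted p alone are also given. Single ratios were compared by exact two-sided permutation tests.

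The genes given library by library were those called, the 3 highest and 3 lowest changes, those more than 3 scaled median absolute deviations (1.4826 times the deviation) from the members' median, *Rplp0*, *Rpsa*, *Rps2*, paralog pairs, symbols with paired rows and the 5 highest and 5 lowest levels. Of the other lists, genes past that adjusted p whose log2 fold change was 0.5 or more in either direction were named, with *Fau* and *Rack1*. Members and lists were chosen with earlier results of these data known. Of the 76 symbols, 75 were found in the RefSeq gene table of assembly CriGri-PICRH-1.0, used for names only. A few rows enter the fit, the counts and the medians but are not reported here by name. The fit was tested on simulated data. Same-numbered libraries did not deviate together (r = -0.03, -0.03 and -0.01), so no pairing was used. Python 3.11.15 with pandas 2.3.3 and scipy 1.17.1 was used for the tables. The depth is known only relative to control replicate 1, so no counting intervals were computed.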

Additional observations from a re-analysis of the deposited data

How the results depend on the processing

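Over 77 results and 1225 alternative values of them, 30 of 52 single genes kept their direction and side of the threshold throughout and 39 never changed sign. The median of the ribosomal protein genes was -0.15 as deposited, -0.10 with upper-quartile scaling, -0.013 with TPM rescaling and 0.11 with quantile normalization, and from -0.17 to -0.12 without 1 library. Lower at the adjusted p were 49 rows, against 21 with TPM rescaling, 16 with quantile normalization and 32 without the eBayes trend. Higher were 2, against 12 with TPM rescaling, 43 with quantile normalization, 1 with a pseudocount of 1, with no filter or without the trend, and 1 to 2 without 1 library. *Rps2* alone stayed called lower. The difference in summed share went from -0.92 to -0.43 points without *Rplp0*, *Rps2* and *Rpsa*. Of the 78 rows 47 changed sign over the scalings. Among them and the other genes given with values, signs turned with quantile normalization for *Rplp2* (0.19), *Rpl12* (0.23), *Rps21* (0.099), *Rps25* (0.080), *Rpl7* (0.036), *Rpl22* (0.14), *Rpl26* (0.085), *Rps27* (0.20), *Rps27l* (0.12), *Rpl31* (0.058), *Rps18* (0.0027), the second *Rps19* row (0.088), *Rpl5* (0.12), *Rpl11* (0.021), *Rpl37* (0.017), *Fau* (0.066), *Rack1* (0.062) and *Pdcd2* (0.0071), with TPM rescaling for *Rplp2* (0.052), *Rpl12* (0.090), *Rps27* (0.048), *Rps27l* (0.12), *Rpl31* (0.081), *Rps18* (0.015) and *Pdcd2* (0.11), and with upper-quartile scaling for *Rpl12* (0.0019), *Rps27l* (0.027) and *Pdcd2* (0.025). Without 1 library, *Rpl39* ran from -0.019 to 0.065, *Rps27l* from -0.055 to 0.011, *Pdcd2* from -0.11 to 0.058 and the second *Rpl4* row from -0.24 (without *Xbp1* siRNA replicate 1) to 0.24. *Rpl26l1* missed the threshold with a pseudocount of 1 (adjusted p 0.0537), no filter (0.0658), quantile normalization (0.0705) and no trend (0.0945). The cause was not tested. With the replicate number as a block, 44 rows were lower, 2 higher and 1 called, with a median of -0.15, and same-numbered libraries did not deviate together. Over all genes, 386 calls higher and 359 lower became 114 and 205 with a pseudocount of 1 and 242 higher with a filter at 1 FPKM, and 2898 higher and 2904 lower at the adjusted p became 4551 and 1865 with TPM rescaling. The alternative without members that have a near-identical paralog protein was not run, since no protein sequences were at hand. FPKM without read totals limit what can be said of low rows such as *Rpl26l1*.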
